A study of Mus musculus with 16 samples.

Results

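Sterol and fatty acid synthesis was followed through 33 genes, chosen by name as enzymes of the cholesterol pathway, regulators of the SREBP transcription factors and enzymes that make or desaturate fatty acids. All 33 were among the 52636 gene entries of the deposited tables, and 31 lay above the detection floor often enough to be tested with 11060 genes in all. The cells were RAW264.7, a mouse macrophage-like line, sequenced from the 3′ ends of polyadenylated transcripts. There were 4 groups of 4 libraries: Cebpb siRNA with isoproterenol, control siRNA with isoproterenol, Cebpb siRNA without isoproterenol, and control siRNA without isoproterenol. All cells, controls included, were transfected with 25 nM siRNA by lipofection for 24 h before stimulation, and Cebpb, which encodes the transcription factor C/EBPβ, was targeted with a single siRNA product. Isoproterenol is an agonist of β-adrenergic receptors; the sources used here state neither its dose nor its duration. Each group holds replicates 1 and 2 of experiments 2 and 1.

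As background, cholesterol is built from acetyl-CoA through mevalonate, squalene and lanosterol, and fatty acids from acetyl-CoA through malonyl-CoA. The SREBP proteins are membrane-bound precursors. When sterols are scarce, the escort protein Scap carries them to the Golgi, where proteases release the part that enters the nucleus and activates these genes, whereas Insig proteins hold Scap back when sterols are plentiful. In macrophages the pathway also supplies membrane and intermediates that bear on inflammatory signalling.

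Levels are given as RPM, reads per 1000000 sequenced reads, as deposited and per library, in the order replicates 1 and 2 of experiment 2, then replicates 1 and 2 of experiment 1. Differences are log2 values with standard errors from a fit of the 4 groups and the experiment, and "rose" or "fell" is used of genes with a Benjamini-Hochberg adjusted p under 0.05 over all tested genes. Because the RNA came from whole cultures, fewer cells of a type and less RNA per cell cannot be told apart.

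Sequencing depth was 9.42 to 25.17 M reads per library. Cebpb had 21.8, 33.1, 11.8 and 25.0 RPM with Cebpb siRNA, against 81.4, 87.3, 74.5 and 61.3 RPM with control siRNA, and the groups did not overlap. Its mean was 22.9 ± 8.83 RPM with Cebpb siRNA and 76.1 ± 11.2 RPM with control siRNA (SD, n = 4 each), or 30.1% of control. With isoproterenol, Cebpb was 26.5 ± 2.04 RPM with Cebpb siRNA and 92.1 ± 10.3 RPM with control siRNA, or 28.7%. An exact two-sided permutation test gave p = 0.0286 in both comparisons, the smallest that 4 against 4 libraries allow. This test exchanged libraries freely, also between the experiments, and so took no account of the experiment. All 6 macrophage markers were detected, and the markers of fibroblasts, T cells, B cells, epithelial cells, adipocytes and hepatocytes were listed at 0 in all 16 libraries.

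The main pattern was a fall of many of these enzymes in Cebpb siRNA cells, with a few members rising against it. Without isoproterenol 16 of 31 members fell (51.6%), where 30.8% of all tested genes fell, and 5 rose (16.1%), where 30.5% of all tested genes rose. Their median log2 difference was −0.38, against 0.007 over all tested genes. With isoproterenol 17 members fell, against 30.6% of all tested genes, and 5 rose, against 31.3% of all tested genes, with a median of −0.35 beside 0.014 over all tested genes. All 16 members that fell without isoproterenol were among the 17 that fell with it, the added gene being Srebf1, and the 5 that rose were Hmgcs1, Msmo1, Insig2, Scap and Scd2 in both comparisons. On the values as deposited, without scaling between libraries, 22 fell and 3 rose without isoproterenol. In the same libraries all 20 of 20 cell cycle genes fell with and without isoproterenol. Their summed level was 972 to 1130 RPM with Cebpb siRNA, against 3100 to 3240 RPM with control siRNA, and 884 to 984 RPM against 2720 to 2870 RPM with isoproterenol. Mitochondrial transcripts took 4.25 to 6.36% of reads in the 8 Cebpb siRNA libraries and 3.01 to 3.83% in the 8 control siRNA libraries. The part of these shifts in the result was not tested.

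**Figure D1:**
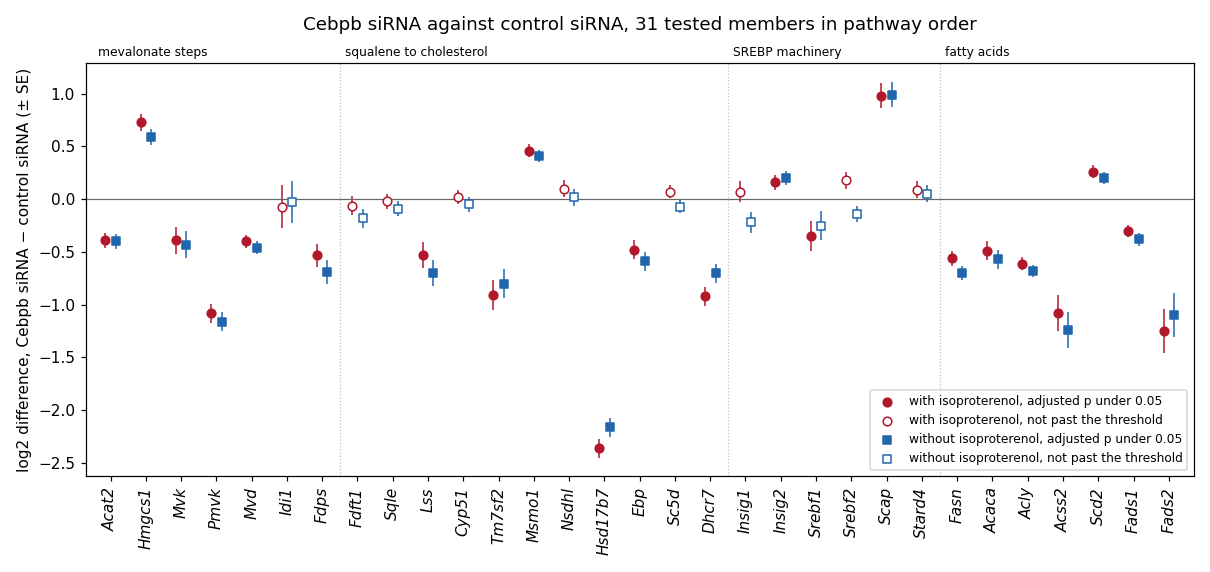
Log2 difference between Cebpb siRNA and control siRNA cells (vertical axis, ± SE) for the 31 tested members in pathway order, with isoproterenol (circles) and without it (squares). Filled symbols have an adjusted p under 0.05; Hsd17b7 lies lowest at −2.36 with and −2.16 without isoproterenol, and Scap highest at 0.98 and 0.99.

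Promoter sequences from RefSeq, 300 bases each from 250 before to 50 after the annotated start on GRCm38.p6, were at hand for 26 members, 34 promoters in all. They are shown for the member that rose most among the enzymes, Hmgcs1, and for the opposite ends of sterol demethylation, Msmo1, which rose, and Hsd17b7, which fell furthest. Capitals mark the sterol regulatory element core TCACNCCAC and the NF-Y word CCAAT, read on either strand, so that ATTGG is CCAAT on the other strand. Each is given 5′ to 3′ along its gene.
Hmgcs1, chr13:119690101-119690400, plus strand: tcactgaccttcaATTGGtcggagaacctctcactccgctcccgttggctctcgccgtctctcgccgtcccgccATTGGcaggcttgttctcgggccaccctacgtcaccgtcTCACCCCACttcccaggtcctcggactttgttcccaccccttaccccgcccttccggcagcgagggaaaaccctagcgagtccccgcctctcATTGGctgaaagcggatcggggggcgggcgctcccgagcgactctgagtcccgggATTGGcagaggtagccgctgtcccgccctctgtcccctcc
Msmo1, chr8:64733529-64733828, minus strand: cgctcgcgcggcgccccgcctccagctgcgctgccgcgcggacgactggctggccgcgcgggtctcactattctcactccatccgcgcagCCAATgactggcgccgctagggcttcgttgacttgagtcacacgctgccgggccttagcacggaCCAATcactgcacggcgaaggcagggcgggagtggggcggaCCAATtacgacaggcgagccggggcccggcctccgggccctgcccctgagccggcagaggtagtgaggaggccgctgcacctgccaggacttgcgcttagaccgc
Hsd17b7, chr1:169969156-169969455, minus strand: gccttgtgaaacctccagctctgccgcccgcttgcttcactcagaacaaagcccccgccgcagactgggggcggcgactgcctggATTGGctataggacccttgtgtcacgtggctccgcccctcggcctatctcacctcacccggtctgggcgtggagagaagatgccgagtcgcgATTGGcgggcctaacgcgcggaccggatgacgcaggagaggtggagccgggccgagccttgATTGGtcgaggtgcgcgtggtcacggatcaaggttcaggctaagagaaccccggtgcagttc

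The core TCACNCCAC was in 1 of these 26 members, Hmgcs1, and in 1.24% of 32851 promoters of the same length. CCAAT was in 64.7% of member promoters and 37.4% of all, in 21 members, among them all 3 printed above. The Sp1 word GGGCGG was in 76.5% of member promoters and 35.7% of all, and the E box CACGTG in 17.6% and 7.15%, among members in Hsd17b7, Sc5d, Dhcr7, Insig1 and Scap. The C/EBP word TTGCNNAA was in 5.88% of member promoters, those of Nsdhl and Dhcr7, and in 10.8% of all, and the cAMP response element core TGACG was in 26.5% and 20.8%. Both strands were searched, and the words may overlap each other. The 32851 promoters include those of genes not tested here, and the shares over tested genes alone were not counted. CCAAT was found in members that fell, rose or did not pass, where a member counts if any of its promoters holds the word. It was in Pmvk and Lss, which fell, in Msmo1 and Insig2, which rose, and in Cyp51 and Sc5d, which did not pass. For Pmvk and Insig2 only some of the listed promoters hold it. Scap, which rose, and Acat2, which fell, were among the members without it. Which start these cells use was not tested.

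The 3′ untranslated regions were read for AACTTGT, a 7-base word that earlier work on these same libraries had picked out in genes that fell, so its counts are a description. It was in 4 tested members: Hsd17b7, Sc5d, Cyp51 and Stard4. Sites are shown for Hsd17b7, which fell furthest, and for Sc5d and Cyp51, which hold the word and did not pass, with the word in capitals, 5′ to 3′ along the minus strand of GRCm38.
Hsd17b7, chr1:169952103-169952109: aatctccctacAACTTGTggtatgaaaact
Hsd17b7, chr1:169949898-169949904: cagcgctaagtAACTTGTcttccttgtatt
Sc5d, chr9:42255140-42255146: ggtccaggaacAACTTGTcttttcagccgg
Cyp51, chr5:4081595-4081601: tcatgaatttgAACTTGTgcttcagtaagt

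Coordinates are those of the 7 bases in capitals. Of the 4 members with the word, 1 fell without isoproterenol, and of the 27 without it, 15 fell; with isoproterenol the counts were 1 of 4 and 16 of 27. Over all tested genes with an annotated 3′ untranslated region, 50% of 1512 with the word and 29.0% of 8613 without it fell without isoproterenol. The median length of the region was 2445 bases with the word and 1033 without it, and the part of length was not tested. Sc5d, with 3 copies of the word, differed by −0.07 ± 0.06, and Hsd17b7, with 2 copies, by −2.16 ± 0.09. Most members that fell, among them Pmvk, Dhcr7, Fasn and Acly, have no copy.

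In the steps from acetyl-CoA to farnesyl diphosphate, Hmgcs1 differed from its neighbours on either side. Of 7 genes, 5 fell and 1 rose in both siRNA comparisons, and Idi1, the isopentenyl diphosphate isomerase, did not pass the test. Among all tested genes 30.8% fell and 30.5% rose without isoproterenol, and 30.6% fell and 31.3% rose with it. Idi1 lay near the floor, between 0 and 2.15 RPM over the 16 libraries. Hmgcs1, the cytosolic synthase that makes HMG-CoA (ENSMUSG00000093930.2, chromosome 13, 119690379 to 119708260, plus strand), was the member that rose. It had 327, 289, 243 and 222 RPM with Cebpb siRNA, against 211, 202, 164 and 178 RPM with control siRNA. With isoproterenol, Hmgcs1 had 425, 340, 331 and 283 RPM with Cebpb siRNA, against 224, 229, 201 and 207 RPM with control siRNA. The groups did not overlap in either comparison, and the rise was 1.51-fold without isoproterenol (log2 0.59 ± 0.08, adjusted p = 1.29e-06) and 1.66-fold with it (0.73 ± 0.08, adjusted p = 5.47e-08).

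Pmvk, phosphomevalonate kinase (ENSMUSG00000027952.16, chromosome 3, 89454541 to 89469013, plus strand), fell furthest of these steps. It had 15.2, 17.9, 11.2 and 14.0 RPM with Cebpb siRNA, against 41.9, 38.1, 31.7 and 26.4 RPM with control siRNA. With isoproterenol, Pmvk had 22.1, 19.6, 13.7 and 16.4 RPM with Cebpb siRNA, against 43.6, 49.9, 31.1 and 34.3 RPM with control siRNA. No Cebpb siRNA library reached the lowest control library in either comparison, and the log2 difference was −1.16 ± 0.09 without isoproterenol (adjusted p = 1.28e-10) and −1.08 ± 0.09 with it (adjusted p = 3.63e-10). Mvd, which decarboxylates mevalonate diphosphate in the next step, fell less. It had 35.0, 33.1, 26.0 and 29.6 RPM with Cebpb siRNA, against 52.4, 50.2, 41.1 and 37.2 RPM with control siRNA, without overlap. With isoproterenol, Mvd had 44.3, 40.7, 30.5 and 33.4 RPM with Cebpb siRNA, against 56.0, 59.3, 43.9 and 45.3 RPM with control siRNA, where 1 Cebpb siRNA library lay above the lowest control library. The differences were −0.46 ± 0.06 (adjusted p = 6.76e-07) and −0.40 ± 0.06 (adjusted p = 5.34e-06).

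Fdps, farnesyl diphosphate synthase, had 9.26, 12, 6.26 and 8.54 RPM with Cebpb siRNA, against 19.3, 16.2, 12.7 and 12.6 RPM with control siRNA. With isoproterenol, Fdps had 13.3, 10.6, 8.61 and 9.20 RPM with Cebpb siRNA, against 17.0, 20.4, 12.4 and 13.5 RPM with control siRNA. The groups were apart without isoproterenol and overlapped in 1 Cebpb siRNA library with it; the differences were −0.69 ± 0.11 (adjusted p = 1.51e-05) and −0.53 ± 0.11 (adjusted p = 0.000271). Acat2, the cytosolic thiolase of the first condensation, fell by 0.40 without and by 0.39 with isoproterenol on the log2 scale. Mevalonate kinase Mvk fell by 0.43 and by 0.39. The Mvk call with isoproterenol was lost when replicate 2 of experiment 2 was left out of either group (log2 −0.29 without the control siRNA library and −0.26 without the Cebpb siRNA library).

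From squalene to cholesterol the changes were uneven. Of 11 genes, 5 fell (Lss, Tm7sf2, Hsd17b7, Ebp and Dhcr7), 1 rose (Msmo1) and 5 did not pass the test (squalene synthase Fdft1, squalene epoxidase Sqle, lanosterol demethylase Cyp51, Nsdhl and Sc5d), in both siRNA comparisons. The shares of all tested genes were 30.8% lower and 30.5% higher without isoproterenol, and 30.6% lower and 31.3% higher with it. Hsd17b7 (ENSMUSG00000026675.12, chromosome 1, 169949535 to 169969241, minus strand), the keto reductase that completes removal of a methyl group at carbon 4 of the sterol ring, showed the largest change of all members. It had 26.7, 22.6, 15.1 and 19.5 RPM with Cebpb siRNA, against 99.1, 109, 87.0 and 94.4 RPM with control siRNA. With isoproterenol, Hsd17b7 had 23.1, 24.7, 18.4 and 19.7 RPM with Cebpb siRNA, against 131, 112, 114 and 101 RPM with control siRNA. The groups stood far apart: Hsd17b7 fell to 22.4% of control without isoproterenol (log2 −2.16 ± 0.09, adjusted p = 1.7e-14) and to 19.5% with it (−2.36 ± 0.09, adjusted p = 3.4e-15).

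Msmo1 (chromosome 8, 64718139 to 64733792, minus strand), the monooxygenase that opens the same demethylation, moved the other way, while Nsdhl, the dehydrogenase between them, did not pass the test (log2 0.02 ± 0.08 without and 0.10 ± 0.08 with isoproterenol). Msmo1 had 208, 210, 159 and 164 RPM with Cebpb siRNA, against 155, 162, 136 and 134 RPM with control siRNA. With isoproterenol, Msmo1 had 260, 247, 208 and 214 RPM with Cebpb siRNA, against 178, 185, 170 and 168 RPM with control siRNA. The groups overlapped without isoproterenol, by the highest control library of experiment 2 over the lowest Cebpb siRNA library of experiment 1, and not with it. The rise was 0.41 ± 0.06 on the log2 scale without isoproterenol (adjusted p = 3.52e-06) and 0.46 ± 0.06 with it (adjusted p = 5.93e-07).

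Lss, lanosterol synthase, which closes the sterol rings, had 12.4, 11.4, 6.96 and 9.29 RPM with Cebpb siRNA, against 19.8, 19, 14.2 and 14.7 RPM with control siRNA. With isoproterenol, Lss had 16.6, 12.8, 12.6 and 8.69 RPM with Cebpb siRNA, against 22.2, 20.6, 15.9 and 16.4 RPM with control siRNA. The groups were apart without isoproterenol (log2 −0.70 ± 0.12, adjusted p = 1.72e-05) and overlapped in 1 Cebpb siRNA library with it (−0.53 ± 0.12, adjusted p = 0.000404). Ebp, the isomerase of the sterol ring double bond, had 30.3, 24.1, 24.1 and 24.5 RPM with Cebpb siRNA, against 53.5, 45.6, 33.7 and 33.5 RPM with control siRNA. With isoproterenol, Ebp had 36.3, 30.4, 25.5 and 29.2 RPM with Cebpb siRNA, against 48.7, 53.4, 34.1 and 41.3 RPM with control siRNA. Ebp fell by 0.59 ± 0.09 without overlap (adjusted p = 6.35e-06) and by 0.48 ± 0.09 with 1 overlapping library (adjusted p = 8.28e-05).

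Dhcr7, the reductase of the final step to cholesterol (chromosome 7, 143823145 to 143848410, plus strand), had 11.8, 12.7, 10.4 and 10.8 RPM with Cebpb siRNA, against 21.8, 23.0, 17.6 and 16.4 RPM with control siRNA. With isoproterenol, Dhcr7 had 10.6, 11.8, 9.19 and 10.0 RPM with Cebpb siRNA, against 20.6, 23.5, 20.5 and 17.7 RPM with control siRNA. The groups did not overlap, and Dhcr7 fell by 0.70 ± 0.09 (adjusted p = 3.53e-07) and 0.92 ± 0.09 (adjusted p = 4.67e-09). Tm7sf2, a sterol reductase, averaged 3.90 ± 0.385 RPM with Cebpb siRNA and 7.18 ± 0.608 RPM with control siRNA, a difference of −0.80 ± 0.14 (adjusted p = 3.75e-05); with isoproterenol the difference was −0.91 ± 0.14. Tm7sf2 overlaps Vps51 on the same strand, so reads between them are uncertain, and Vps51 averaged 25.4 RPM with Cebpb siRNA and 10.5 RPM with control siRNA.

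The 5 sterol genes that did not pass had small differences when both experiments were fitted together. Without isoproterenol, experiment 1 alone gave log2 differences of −0.35 for Fdft1, −0.21 for Sqle, −0.12 for Cyp51, −0.14 for Sc5d and 0.02 for Nsdhl. Experiment 2 alone gave −0.01, 0.04, 0.01, −0.01 and 0.01, in the same order. Cyp51 had 240, 195, 139 and 144 RPM with Cebpb siRNA, against 225, 241, 162 and 156 RPM with control siRNA (log2 −0.05 ± 0.07). With isoproterenol, Cyp51 had 289, 259, 176 and 173 RPM with Cebpb siRNA, against 255, 262, 190 and 202 RPM with control siRNA (0.02 ± 0.07). The siRNA groups overlapped, and in each group both libraries of experiment 2 were above both libraries of experiment 1. For Sqle the differences were −0.09 ± 0.07 and −0.02 ± 0.07, for Sc5d, the desaturase before Dhcr7, −0.07 ± 0.06 and 0.07 ± 0.06, and for Fdft1 −0.18 ± 0.09 and −0.06 ± 0.09. Fdft1 overlaps the abundant Ctsb on the opposite strand, and Cyp51 overlaps Akap9 on the opposite strand; the sources used here do not say whether counting used strand.

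**Figure D2:**
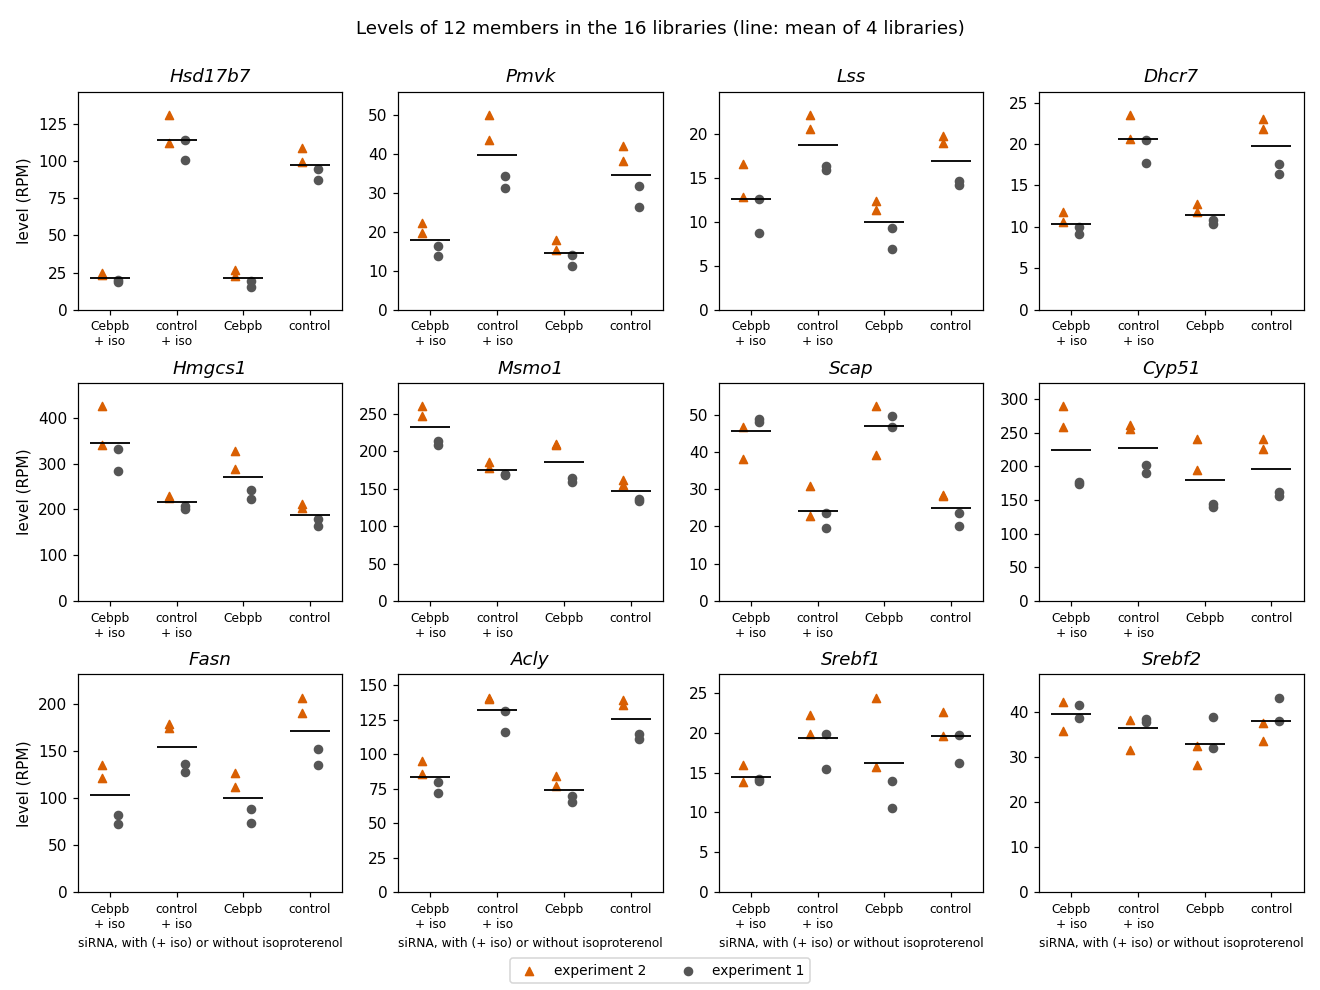
Level in RPM (vertical axes start at 0) of 12 members in the 16 libraries, by group along the horizontal axis, with triangles for experiment 2, circles for experiment 1 and a line at the mean of 4 libraries. Hsd17b7 lies between 15.1 and 26.7 RPM in all Cebpb siRNA libraries and between 87.0 and 131 RPM in all control siRNA libraries, while Cyp51 separates by experiment.

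Among the 6 genes of the SREBP machinery, none fell and 2 rose without isoproterenol, and 1 fell and the same 2 rose with it. The 33.3% that rose lay near the share of all tested genes, 30.5% without and 31.3% with isoproterenol. Of all tested genes 30.8% fell without isoproterenol and 30.6% with it. Scap, the sterol-sensing escort of SREBP (ENSMUSG00000032485.14, chromosome 9, 110333288 to 110384950, plus strand), had 39.2, 52.2, 49.5 and 46.6 RPM with Cebpb siRNA, against 28.3, 28.1, 23.5 and 20 RPM with control siRNA. With isoproterenol, Scap had 46.7, 38.1, 48.9 and 48.1 RPM with Cebpb siRNA, against 22.7, 30.8, 19.6 and 23.7 RPM with control siRNA. Every Cebpb siRNA library was above every control library, and Scap rose 1.99-fold (log2 0.99 ± 0.12, adjusted p = 4.4e-07) and 1.98-fold (0.98 ± 0.12, adjusted p = 4.72e-07). The gene that overlaps Scap on the opposite strand, 5830462I19Rik, was listed at 0 in all 16 libraries.

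Insig2, an endoplasmic reticulum protein that retains Scap, had 77.5, 79.8, 94.6 and 98.7 RPM with Cebpb siRNA, against 84.0, 71.7, 81.5 and 84.0 RPM with control siRNA. With isoproterenol, Insig2 had 93.7, 79.4, 102 and 97.5 RPM with Cebpb siRNA, against 82.0, 83.1, 85.9 and 97.0 RPM with control siRNA. The groups overlapped in both comparisons, and the rises were small, 0.20 ± 0.07 (adjusted p = 0.0117) and 0.16 ± 0.07 (adjusted p = 0.043). On the values as deposited neither rise passed (adjusted p = 0.143 and 0.249). The call without isoproterenol was lost without control siRNA replicate 2 of experiment 2 (0.17), and the call with it without any of 7 libraries (0.12 to 0.17): Cebpb siRNA replicate 2 of experiment 1, each of the 4 control siRNA libraries with isoproterenol, and replicate 1 of each experiment with Cebpb siRNA and isoproterenol. Insig1, the paralog that is itself an SREBP target, had 15.5, 13.5, 11.5 and 11.4 RPM with Cebpb siRNA, against 14.9, 18.1, 16.9 and 13.6 RPM with control siRNA. With isoproterenol, Insig1 had 17.3, 19.4, 16.3 and 14.4 RPM with Cebpb siRNA, against 18.5, 17.5, 15.9 and 14.7 RPM with control siRNA. Neither difference passed (−0.22 ± 0.10, adjusted p = 0.0577, and 0.07 ± 0.10, adjusted p = 0.526), and all these groups overlapped.

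The SREBP genes themselves showed small differences. Srebf1, whose products favour fatty acid genes, had 15.7, 24.4, 10.6 and 14.0 RPM with Cebpb siRNA, against 19.6, 22.6, 19.7 and 16.2 RPM with control siRNA, with a difference of −0.25 ± 0.14 (adjusted p = 0.144) and a spread of the Cebpb siRNA libraries that covered the controls. With isoproterenol, Srebf1 had 13.8, 16, 14.2 and 14.0 RPM with Cebpb siRNA, against 19.9, 22.2, 19.9 and 15.5 RPM with control siRNA. That fall of 0.35 ± 0.14 passed (adjusted p = 0.0425), with the groups overlapping by 1 library of each. It was lost when any of 6 libraries was left out (−0.38 to −0.26): control siRNA replicate 2 of experiment 1, control siRNA with isoproterenol replicate 1 of experiment 1 or replicate 2 of experiment 2, and Cebpb siRNA with isoproterenol replicate 2 of experiment 1 or either replicate of experiment 2. Srebf2, whose product favours sterol genes, had 32.5, 28.2, 32.2 and 39.0 RPM with Cebpb siRNA, against 33.6, 37.7, 43.3 and 38.2 RPM with control siRNA. With isoproterenol, Srebf2 had 35.9, 42.4, 38.8 and 41.7 RPM with Cebpb siRNA, against 38.4, 31.6, 37.8 and 38.6 RPM with control siRNA. These groups overlapped, and the differences of −0.14 ± 0.08 (adjusted p = 0.148) and 0.18 ± 0.08 (adjusted p = 0.0566) did not pass. Stard4, a sterol transfer protein, differed by 0.05 ± 0.08 and 0.09 ± 0.08.

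Of the 9 genes of fatty acid synthesis and desaturation, 7 were tested, and 6 of these fell and 1 rose in both siRNA comparisons. Without isoproterenol 30.8% of all tested genes fell and 30.5% rose, and with it 30.6% fell and 31.3% rose. Fasn, fatty acid synthase (ENSMUSG00000025153.9, chromosome 11, 120805846 to 120824547, minus strand), had 127, 112, 73.5 and 88.5 RPM with Cebpb siRNA, against 191, 207, 152 and 135 RPM with control siRNA. With isoproterenol, Fasn had 122, 135, 72.7 and 82.2 RPM with Cebpb siRNA, against 179, 175, 136 and 128 RPM with control siRNA. The groups were apart without isoproterenol (log2 −0.70 ± 0.07, adjusted p = 2.71e-08); with it 1 Cebpb siRNA library of experiment 2 lay above the lowest control library of experiment 1 (−0.56 ± 0.07, adjusted p = 8.04e-07). Acly, ATP citrate lyase, which supplies cytosolic acetyl-CoA (chromosome 11, 100476353 to 100528000, minus strand), had 84.4, 76.7, 65.3 and 69.7 RPM with Cebpb siRNA, against 136, 139, 111 and 115 RPM with control siRNA. With isoproterenol, Acly had 95.4, 85.5, 72.2 and 80.0 RPM with Cebpb siRNA, against 141, 140, 116 and 131 RPM with control siRNA. The groups did not overlap, and Acly fell by 0.68 ± 0.06 (adjusted p = 7.17e-10) and 0.61 ± 0.06 (adjusted p = 3.66e-09).

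Acaca, the acetyl-CoA carboxylase of lipogenesis, fell by 0.57 and 0.49 on the log2 scale. Acss2, which makes acetyl-CoA from acetate, averaged 1.39 ± 0.963 RPM with Cebpb siRNA and 3.97 ± 0.286 RPM with control siRNA, with 1 Cebpb siRNA library listed at 0; its log2 difference of −1.24 ± 0.17 is understated by the floor. With isoproterenol, where no Acss2 library was listed at 0, the difference was −1.08 ± 0.17. The desaturases that act on polyunsaturated fatty acids both fell, Fads1 by 0.38 and 0.30 and the low Fads2 by 1.10 and 1.25. Scd2, a stearoyl-CoA desaturase, rose slightly, with means of 611 ± 95.5 RPM with Cebpb siRNA and 560 ± 72.6 RPM with control siRNA (0.20 ± 0.06, adjusted p = 0.00954) and of 627 ± 58.2 and 547 ± 51.7 RPM with isoproterenol (0.26 ± 0.06, adjusted p = 0.00133). The first of these was 0.12 on the values as deposited (adjusted p = 0.105). Its paralog Scd1 and the elongase Elovl6 were listed at 0 in all 16 libraries.

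Of the 24 other genes of the pathway that are not among the 33, 23 were tested; 10 fell and 3 rose without isoproterenol, and 10 fell and 3 rose with it. Over all tested genes 30.8% fell and 30.5% rose without isoproterenol, and 30.6% fell and 31.3% rose with it. Elovl1, an elongase of long saturated chains, fell by 1.25 without and 1.23 with isoproterenol, the elongase Elovl5 by 0.73 and 0.83, and malic enzyme Me1, a source of NADPH, by 0.78 and 0.83. Mid1ip1, a regulator of acetyl-CoA carboxylase, fell by 0.58 and 0.91. Lbr, another sterol reductase of the step served by Tm7sf2, fell by 0.63 and 0.57. The Golgi proteases that release SREBP moved in opposite directions: Mbtps1 rose by 0.54 ± 0.05 and 0.50 ± 0.05, and Mbtps2 fell by 0.41 ± 0.11 and 0.51 ± 0.11.

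Isoproterenol moved few members. In control siRNA cells none of 31 rose, where 1.18% of all tested genes rose, and none fell, where 0.443% of all tested genes fell. At an unadjusted limma p under 0.05 there were 4 higher members, Mvd, Cyp51, Msmo1 and Hsd17b7, and 1 lower, Fasn, against 5.68% and 5.41% of all tested genes. The nearest to the threshold was Msmo1 (0.23 ± 0.06, adjusted p = 0.0539), whose libraries given above were all higher with isoproterenol than without it. Msmo1 passed with voom on the recovered reads, and also on the values as deposited. In Cebpb siRNA cells 5 members rose, or 16.1%, where 3.0% of all tested genes rose, and none fell, where 2.5% of all tested genes fell. At an unadjusted p under 0.05, 12 were higher and 1, Dhcr7, was lower, against 10.3% and 9.11% of all tested genes, and voom called 3 higher and 0 lower. On the values as deposited the calls over all genes were 455 higher and 153 lower in Cebpb siRNA cells, against 332 and 277 after scaling, and 145 and 27 in control siRNA cells, against 131 and 49.

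The 5 members that rose with isoproterenol in Cebpb siRNA cells were Hmgcs1 (0.30 ± 0.08, adjusted p = 0.026), Mvd (0.21 ± 0.06, adjusted p = 0.0388), Cyp51 (0.27 ± 0.07, adjusted p = 0.0152), Msmo1 (0.28 ± 0.06, adjusted p = 0.00533) and Insig1 (0.33 ± 0.10, adjusted p = 0.0469). In all 5 the libraries with and without isoproterenol overlapped when experiments were pooled, and both experiments gave a positive difference. Insig1 averaged 16.8 ± 2.07 RPM with isoproterenol and 12.9 ± 1.93 RPM without it (SD, n = 4 each), and its call held only without control siRNA replicate 1 of either experiment, Cebpb siRNA replicate 1 of experiment 2, or Cebpb siRNA with isoproterenol replicate 2 of experiment 1. The Mvd call was lost without any of 8 libraries: control siRNA replicate 2 of experiment 2, 3 of the 4 Cebpb siRNA libraries (all but replicate 2 of experiment 1), control siRNA with isoproterenol replicate 1 of experiment 2, and 3 of the 4 with Cebpb siRNA and isoproterenol (all but replicate 1 of experiment 1). Those of Hmgcs1 and Cyp51 were lost without Cebpb siRNA replicate 2 of experiment 1 or Cebpb siRNA with isoproterenol replicate 1 of experiment 2, and that of Hmgcs1 also without Cebpb siRNA with isoproterenol replicate 1 of experiment 1 (log2 0.23 to 0.26). The Msmo1 call stood without any single library. In the same comparison 10 of 20 cell cycle genes fell, with a median of −0.27, where 2.5% of all tested genes fell. With isoproterenol in control siRNA cells 2 of 20 fell, with a median of −0.2, where 0.443% of all tested genes fell. The difference of the isoproterenol effects was called for 0 of the 20. The part of the cell cycle genes in the calls of the members was not tested.

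**Figure D3:**
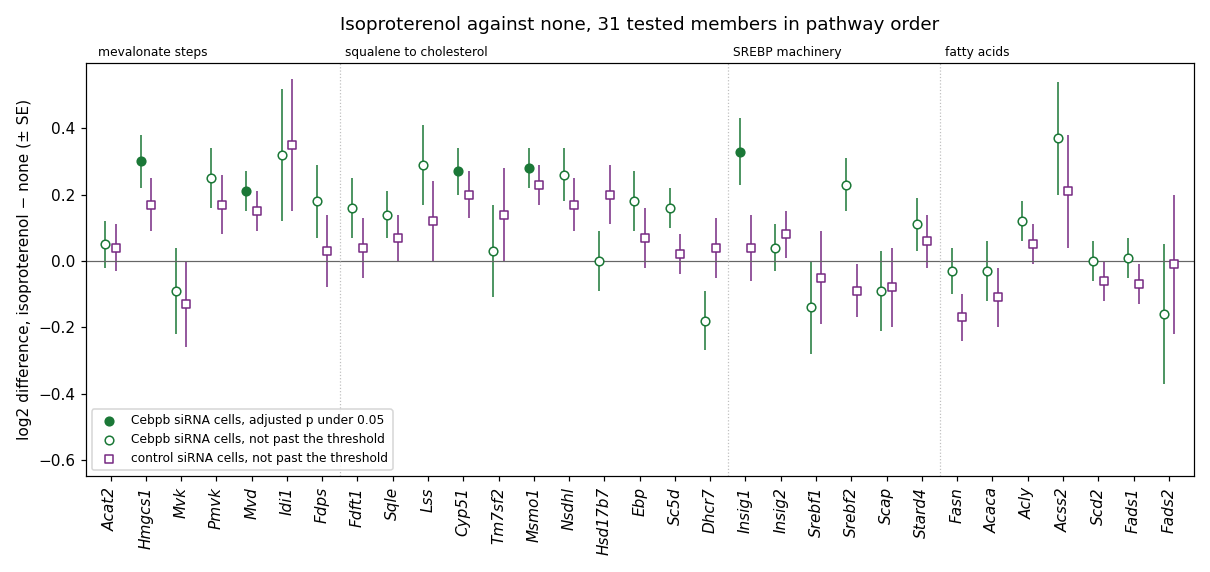
Log2 difference between isoproterenol and none (vertical axis, ± SE) for the 31 tested members in pathway order, in Cebpb siRNA cells (circles) and control siRNA cells (squares). The 5 filled circles, Hmgcs1, Mvd, Cyp51, Msmo1 and Insig1, have an adjusted p under 0.05, and no member passed in control siRNA cells.

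The isoproterenol effects in Cebpb siRNA and control siRNA cells were not shown to differ for any member. The difference of the effects was called lower for 0 of 31 members and for 0.118% of all tested genes, and called higher for 0 of 31 and for 0.118% of all tested genes, and voom also called 0. At an unadjusted limma p under 0.05 there were 2 members, Srebf2 (0.32 ± 0.11, adjusted p = 0.516) and Insig1 (0.29 ± 0.14, adjusted p = 0.77), both higher in Cebpb siRNA cells, and 0 lower, against 3.24% higher and 3.09% lower over all tested genes. Srebf2 differed by 0.23 ± 0.08 with isoproterenol in Cebpb siRNA cells and by −0.09 ± 0.08 in control siRNA cells, neither of which passed.

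A shift of these genes larger than that with isoproterenol lay between the experiments, which every group spans equally. This comparison was added after the values were seen. In experiment 2, 22 of 31 members were higher than in experiment 1 (71.0%), where 16.5% of all tested genes were called higher, and 2 were lower (6.45%), where 16.2% of all tested genes were called lower. The median of the members was 0.24, against −0.007 over all tested genes. By role, 5 of 7 mevalonate genes, 10 of 11 sterol genes, 3 of 6 machinery genes and 4 of 7 fatty acid genes were higher. For 15 members both libraries of experiment 2 exceeded both libraries of experiment 1 in each of the 4 groups. The share of all tested genes that separate in this way was not counted.

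The largest of these differences were those of Cyp51 (0.55 ± 0.05, adjusted p = 1.46e-08), Fasn (0.54 ± 0.05, adjusted p = 7.59e-08) and Fdps (0.48 ± 0.08, adjusted p = 7.35e-05). Cyp51 had a median of 248 RPM in the 8 libraries of experiment 2, from 195 to 289 RPM, against 168 RPM in the 8 of experiment 1, from 139 to 202 RPM. Fasn had a median of 155 RPM in experiment 2, from 112 to 207 RPM, against 108 RPM in experiment 1, from 72.7 to 152 RPM. The libraries of the experiments overlapped for both genes when groups were pooled, since the groups differ, and did not overlap within any group. The lower members were Insig2 (−0.19 ± 0.05, adjusted p = 0.00321) and Srebf2 (−0.16 ± 0.06, adjusted p = 0.0397), and the Srebf2 call was lost in 10 of the 16 fits that left out 1 library (−0.16 to −0.13). Srebf1 was higher (0.31 ± 0.10, adjusted p = 0.0241), but not without Cebpb siRNA replicate 1 of experiment 1 (0.24) or control siRNA with isoproterenol replicate 2 of experiment 1. Of the other pathway genes, 9 of 23 were higher and 3 lower, and of the cell cycle genes 5 of 20 were higher and 3 lower. Over all tested genes 16.5% were called higher and 16.2% lower. Depth was 9.42 to 25.2 M reads in experiment 2 and 13.7 to 24.2 M in experiment 1. What else differed between the experiments is not given in the labels, and its part in these differences was not tested.

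**Figure D4:**
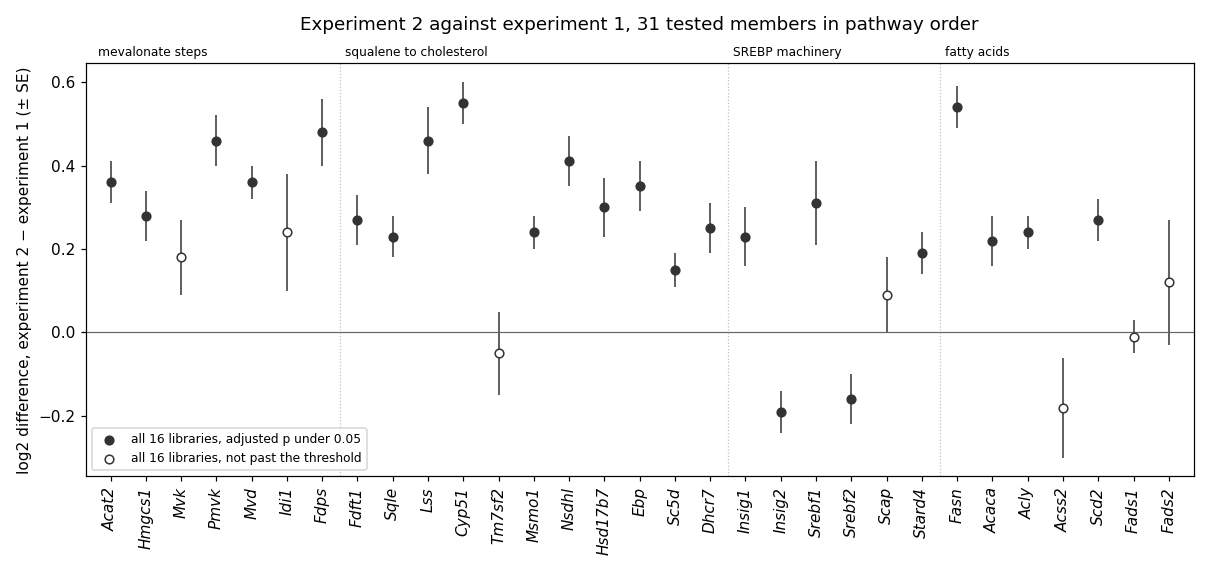
Log2 difference between experiment 2 and experiment 1 (vertical axis, ± SE), over all 16 libraries with the 4 groups in the fit, for the 31 tested members in pathway order. Filled circles have an adjusted p under 0.05: 22 members lie above 0, with Cyp51 at 0.55 and Fasn at 0.54, and Insig2 and Srebf2 lie below.

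The siRNA differences were in the same direction in both experiments for every member that was called. For Hsd17b7 they were −1.97 in experiment 2 and −2.36 in experiment 1 without isoproterenol, and −2.28 and −2.44 with it. For Scap they were 0.80 and 1.19 without isoproterenol, and 0.74 and 1.23 with it. For Hmgcs1 they were 0.69 and 0.49 without isoproterenol, and 0.82 and 0.64 with it. Members near 0, such as Cyp51, took either sign.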

How the data were processed

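RNA of 16 RAW264.7 libraries was sequenced from transcript 3′ ends. Per the labels' protocols these were prepared with a QuantSeq 3′ kit, and per the submitters' processing notes STAR 2.5.3a and the GRCm38 build were used. Counting tool and strand setting are not given in those sources. The authors deposited 1 table per library, whose values, read from the tables themselves, are log2 of reads per 1000000 sequenced reads (RPM), with values at or under 1 RPM listed as 0. Whole reads were recovered from them: 100% of values lay within 0.1 read of a whole number, and the totals were 9.42 to 25.17 M reads, so the floor stands for 9 to 25 reads.

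Libraries were scaled with trimmed means of the log ratios (trims of 30% and 5%, factors 0.934 to 1.05) and set to a common floor of 1.07 RPM, which understates differences of low genes. Genes above this floor in 4 or more libraries, 11060 in all, were fitted with limma 3.58.1 (R 4.3.3, trend and robust estimation) over all 16 libraries, with the 4 groups and the experiment as terms, and p-values were Benjamini-Hochberg adjusted over all tested genes with a threshold of 0.05. With voom on the recovered read counts, Cebpb siRNA gave 3400 lower and 3367 higher genes without isoproterenol, and 3370 and 3477 with it. The difference of the isoproterenol effects was a contrast of the same fit. Cebpb was also tested by an exact permutation test (SciPy 1.17.1). The fits of the siRNA and isoproterenol comparisons were tested on simulated data. The design text describes the libraries within a group as biological replicates. The variance between replicates was 4.93 to 13.3 times that of counting noise (chi-squared per degree of freedom). No pair of libraries was identical.

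The members, gene lists and words were chosen with earlier results of these data known. Values in every library are given for members past the threshold and 1.5-fold in an siRNA comparison, or past it in an isoproterenol comparison, with a mean of at least 10 RPM, and for the 5 regulators Srebf1, Srebf2, Scap, Insig1 and Insig2. Promoters came from RefSeq (GRCm38.p6), for 26 of 33 members, and gene positions and 3′ untranslated regions from GENCODE vM21. The alternatives tried were other scalings, filters, floors, a pseudocount of 1 RPM, voom, fewer libraries, each experiment alone and leaving out each library.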

Additional observations from a re-analysis of the deposited data

Results flagged for a closer look

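In 4 of the 120 groups of 4 libraries examined (every tested member in every group, less those with listed zeros), 1 library lay far from the other 3; chance gives about 1 in 20 such groups. Ebp had 30.3 RPM in replicate 1 of experiment 2 with Cebpb siRNA, where the other 3 had 24.1 to 24.5 RPM. Fads2 had 2.86 RPM in the same library, where the other 3 had 1.7 to 1.88 RPM. Srebf1 had 16 RPM in replicate 2 of experiment 2 with Cebpb siRNA and isoproterenol, where the other 3 had 13.8 to 14.2 RPM. Srebf2 had 31.6 RPM in replicate 2 of experiment 2 with control siRNA and isoproterenol, where the other 3 had 37.8 to 38.6 RPM.

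After scaling between libraries, the siRNA and isoproterenol comparisons of the 31 tested members were read in each experiment. For 5 members, one group of a comparison lay wholly on one side of the other in experiment 2. In experiment 1 it lay wholly on the other side. With 2 libraries per group and experiment such cases also arise by chance, and their share over all tested genes was not counted. This difference between the experiments was not tested. On the levels as deposited, the groups overlapped in experiment 2 for Fdft1 and Cyp51 with isoproterenol and for Stard4, and in experiment 1 for Acaca. With isoproterenol, the log2 difference between Cebpb siRNA and control siRNA was 0.15 in experiment 2 and −0.28 in experiment 1 for Fdft1, 0.10 and −0.15 for Sqle, and 0.15 and −0.11 for Cyp51. Without isoproterenol it was 0.22 in experiment 2 and −0.13 in experiment 1 for Stard4. The difference between isoproterenol and none was −0.08 in experiment 2 and 0.16 in experiment 1 for Fdft1 in control siRNA cells, and 0.16 and −0.22 for Acaca in Cebpb siRNA cells.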

How the results depend on the processing

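No member's called difference changed sign under any alternative. The counts of members that fell with Cebpb siRNA, 16 without and 17 with isoproterenol, stayed within 1.5 times under every alternative run. The 5 that rose without isoproterenol were 3 on the values as deposited and 3 with no term for the experiment, and the 5 with isoproterenol were 3 with no term for the experiment. For isoproterenol in control siRNA cells, the 0 members that rose became 1 on the values as deposited, with genes above the floor in all libraries, with a floor of 2 RPM or with voom, and 2 in the 8 libraries of the comparison alone. In Cebpb siRNA cells the 5 that rose became 1 without trend and robust estimation, 3 with voom, 1 in the 8 libraries alone, 0 with no term for the experiment, 3 in experiment 1 alone and 0 in experiment 2 alone. The 2 members lower in experiment 2 became 1 on the values as deposited and 1 without trend and robust estimation. The cause of these shifts was not tested, except that the 8 libraries and the single experiments hold fewer samples.

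Leaving out each library in turn gave 16 to 18 members that fell and 4 to 5 that rose with Cebpb siRNA without isoproterenol, and 15 to 17 and 4 to 6 with it. It gave 0 to 1 that rose with isoproterenol in control siRNA cells, 1 to 5 in Cebpb siRNA cells, 0 for the difference of the effects, and 21 to 23 higher and 1 to 2 lower in experiment 2. In Cebpb siRNA cells the count was 1 without Cebpb siRNA with isoproterenol replicate 1 of experiment 2, 2 without Cebpb siRNA replicate 2 of experiment 1, and 3 without Cebpb siRNA with isoproterenol replicate 2 of experiment 2 or replicate 1 of experiment 1, Cebpb siRNA replicate 1 of experiment 1 or replicate 2 of experiment 2, control siRNA with isoproterenol replicate 1 of experiment 2, or control siRNA replicate 2 of experiment 2.

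Replicate numbers showed no common pairing of the libraries: same-numbered libraries of an experiment deviated across genes with r from −0.192 to 0.23. These r values were not set against a reference, so whether the libraries were paired was not tested. With the replicate block 17 members fell and 5 rose in each siRNA comparison, 4 rose with isoproterenol in Cebpb siRNA cells, and 0 were called in control siRNA cells or for the difference of the effects. Over all genes and all alternatives but those that leave out 1 library, isoproterenol gave 100 to 455 higher (332 as reported) and 44 to 296 lower (277) in Cebpb siRNA cells, 19 to 227 higher (131) and 2 to 185 lower (49) in control siRNA cells, and 2 to 15 higher and 0 to 14 lower (13 each) for the difference of the effects; each lowest count is that of experiment 2 alone. Idi1, Acss2 and Fads2 lie near the floor, which limits what can be read from them. The part of depth in this was not tested.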
